A study of Mus musculus with 8 samples.

Results

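The genes described here are 50 homeobox genes outside the Hox clusters that act as developmental regulators: LIM-homeodomain, NK, Iroquois, Distal-less, Emx and Vax, Otx, Gbx and En, Msx, Barx and Tlx, and paired-like genes. They were chosen by name, and their CpGs were those in the gene body extended by 5 kb at each end (the locus). All 50 had at least 3 measured CpGs, out of 19429 genes that did. Together they held 4231 of the 441994 CpGs that had at least 10 reads in all 8 libraries, and 278 of the 36513 tiles of 1 kb with at least 3 such CpGs.

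The assay was RRBS (reduced representation bisulfite sequencing), which reads CpG-rich restriction fragments after bisulfite has converted unmethylated cytosines. The cells were nephron progenitors of mouse kidneys at stage E17.5, sorted by GFP. The CRD libraries (4) came from embryos of dams fed 70% of the average daily intake, and the URD libraries (4) from embryos of dams with unrestricted food. In both groups the dams were CD1 mice, an outbred stock, and the embryos carried one copy of the Six2-EGFP/cre transgene, whose GFP follows the Six2 promoter and so marks the cap mesenchyme; both sexes were used. How many litters or embryos went into each library is not given in the labels, so p-values here cover only the spread between these libraries, which may be technical.

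Homeobox genes encode transcription factors that assign regional and cell identity in the embryo. In tissues where they are silent, many are held by Polycomb proteins and the histone mark H3K27me3, and their CpG-rich domains then usually stay free of DNA methylation. Among the 50, Lhx1 is required for formation of the kidney and its tubules, Irx1, Irx2 and Irx3 mark the middle segments of the forming nephron, and Emx2 is needed for the ureteric bud and the urogenital tract. These 5 are called the kidney members below. The others are best known from brain, eye, heart, limb, face, gut or tooth.

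The upstream sequences show how CpG-rich the starts of these genes are. RefSeq (GRCm38.p6, the coordinates of mm10) gave a start for 35 of the 50 members. In 300 bases around the start these held a median of 22 CpGs, against 7 for all 27025 genes with an entry, and a median GC content of 64.7% against 52.7%. The motif CCGG, the cut site of the enzyme usually used in RRBS and its own reverse complement, was found in 30 of the 35 (85.7%), against 52.6% of all genes. TATAAA on either strand was found in 2 (5.71%), against 14.2% of all genes. TAATTA, a palindrome that many homeodomains bind, was found in 4 (11.4%), against 5.32% of all genes; such matches describe letters only. The 250 bases before the start, 5′ to 3′ on the gene's strand, follow for the kidney members with an entry (Irx1 is named only), and for Isl2 and Nkx2-5, the 2 genes with a RefSeq start whose start windows had the highest level. Capitals mark each CpG.
Lhx1: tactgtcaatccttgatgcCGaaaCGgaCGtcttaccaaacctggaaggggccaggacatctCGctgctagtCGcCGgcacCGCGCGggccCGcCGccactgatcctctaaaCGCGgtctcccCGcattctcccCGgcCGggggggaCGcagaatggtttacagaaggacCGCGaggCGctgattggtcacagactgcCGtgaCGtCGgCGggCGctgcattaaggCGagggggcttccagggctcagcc
Irx2: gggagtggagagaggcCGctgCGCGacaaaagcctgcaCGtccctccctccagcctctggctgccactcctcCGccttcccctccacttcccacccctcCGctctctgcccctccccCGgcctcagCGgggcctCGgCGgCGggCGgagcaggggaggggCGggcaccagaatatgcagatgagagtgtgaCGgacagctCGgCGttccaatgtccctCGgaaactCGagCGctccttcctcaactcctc
Irx3: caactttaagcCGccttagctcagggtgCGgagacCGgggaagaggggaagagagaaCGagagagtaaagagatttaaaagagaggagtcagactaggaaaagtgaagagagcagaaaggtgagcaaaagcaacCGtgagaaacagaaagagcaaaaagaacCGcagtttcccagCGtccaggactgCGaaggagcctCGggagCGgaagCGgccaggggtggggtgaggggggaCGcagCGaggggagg
Emx2: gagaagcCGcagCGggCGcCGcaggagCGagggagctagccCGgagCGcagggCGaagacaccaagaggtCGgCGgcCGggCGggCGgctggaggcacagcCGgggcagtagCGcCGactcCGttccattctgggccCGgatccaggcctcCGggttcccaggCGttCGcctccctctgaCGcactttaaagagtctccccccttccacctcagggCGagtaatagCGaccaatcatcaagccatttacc
Isl2: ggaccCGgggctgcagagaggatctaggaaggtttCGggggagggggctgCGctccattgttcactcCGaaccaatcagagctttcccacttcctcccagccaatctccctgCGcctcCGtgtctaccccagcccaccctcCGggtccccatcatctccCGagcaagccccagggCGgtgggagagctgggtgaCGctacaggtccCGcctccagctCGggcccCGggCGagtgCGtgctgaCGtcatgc
Nkx2-5: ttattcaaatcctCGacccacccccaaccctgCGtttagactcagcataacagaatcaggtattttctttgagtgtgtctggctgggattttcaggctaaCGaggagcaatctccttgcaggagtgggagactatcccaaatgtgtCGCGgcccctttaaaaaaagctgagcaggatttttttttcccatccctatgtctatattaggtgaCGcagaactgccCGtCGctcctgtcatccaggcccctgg

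Lhx1 lies on the minus strand, with these bases at chr11:84525535-84525784, and none of their 26 CpGs was measured in all libraries. For Irx2 (plus strand, chr13:72628570-72628819), 18 of 19 CpGs were measured and had a mean level of 0.0661%. For Irx3 (minus strand, chr8:91801655-91801904), 2 of 13 were measured, at 0.617%. For Emx2 (plus strand, chr19:59458440-59458689), 5 of 24 were measured, at 0.0641%. The measured CpGs of these 3 sequences thus had mean levels under 1%. The Isl2 sequence (plus strand, chr9:55540899-55541148) had 10 of 16 CpGs measured, at 0.0291%. The Nkx2-5 sequence (minus strand, chr17:26841566-26841815) is less GC-rich than the others and has 8 CpGs, none of them measured. Over all 35 sequences of 300 bases, the 224 measured CpGs all fell on a CpG of the RefSeq sequence. The starts used for Lhx1, Irx3 and Emx2 lay at an end of the gene body that defines the locus. Those of Irx2, Isl2 and Nkx2-5 lay inside that gene body, and so did their printed bases.

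The member loci were almost free of DNA methylation in both groups. The mean CpG level was 1.10% ± 0.0636 in CRD libraries and 1.10% ± 0.0227 in URD libraries (SD, n = 4 each), a difference of -0.000933 percentage points. Over all CpGs the same means were 16.2% ± 0.128 in CRD and 16.2% ± 0.105 in URD libraries. Of the 4231 member CpGs, 97.4% had a level under 5% against 76.5% of all CpGs, and 31 (0.733%) reached 20% against 19.8% of all. No methylated read was seen in any library at 2148 member CpGs (50.8%), a smaller share than the 56.6% of all CpGs. Of the 278 member tiles, 266 (95.7%) had a level under 5% against 57.0% of all tiles, 1 lay between 20 and 80%, and 3 lay above 80%.

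Depth set the precision of these levels. Libraries held 16045992 to 37305007 reads, and the median shared CpG had 20 to 44 reads, so a single CpG carries more counting error than a tile or a locus. Methylated calls at mitochondrial CpGs, normally unmethylated, made up 0.0221 to 0.0854% of reads. In CRD1 and CRD2 the read-weighted mean over all CpGs lay -2.24 and -3.28 points from the unweighted one, against -0.575 to 0.817 in the other libraries, so these 2 libraries read unmethylated CpGs more deeply. Marker loci of nephron progenitors had a mean CpG level of 3.497%, against 1.02% for stroma, 4.52% for ureteric bud, 50.3% in CRD and 49.8% in URD libraries for endothelium (31 CpGs) and 16.1% for blood. A locus level is not expression, so these values do not identify the sorted cells.

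Member tiles were also low where few CpGs were measured. Tiles with 3 to 5 measured CpGs had a level under 5% in 39 of 44 member tiles (88.6%), against 27.1% of all other tiles. With 6 to 9 CpGs the shares were 93.0% of member tiles and 53.4% of other tiles, and with 10 to 19 CpGs 97.8% and 86.5%. At 20 or more CpGs nearly every tile was low in both sets, with 100% of 73 member tiles and 97.4% of others. Median levels ran the other way in these fuller tiles. They were 0.476% in member tiles and 0.107% in others at 10 to 19 CpGs, and 0.224% and 0.0702% at 20 or more. The gap in the share under 5% was thus widest in tiles with few measured CpGs. Such tiles need not be poor in CpGs, since RRBS leaves many CpGs unread. The other tiles were also not limited to gene loci.

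**Figure D1:**
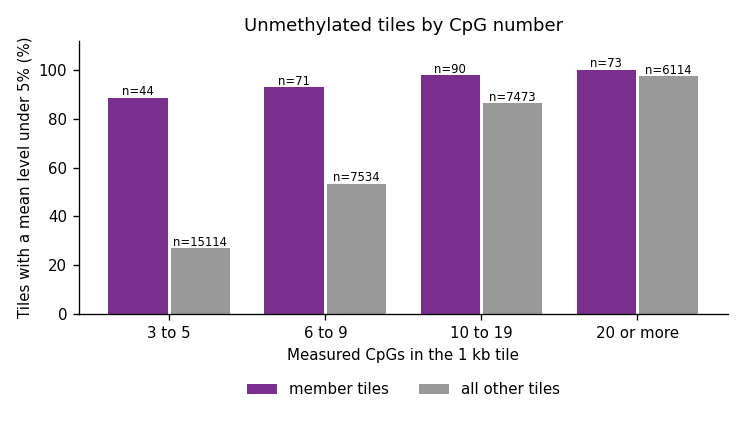
Share of 1 kb tiles with a mean level under 5% over the 8 libraries (y axis, percent), by number of measured CpGs (x axis), for member tiles and all other tiles; n is the number of tiles. The bars differ most at 3 to 5 CpGs, 88.6% against 27.1%, and least at 20 or more, 100% against 97.4%.

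Around the 35 RefSeq starts the members stayed low on both sides. In the kilobase before the start the mean CpG level was 0.267% in members and 1.35% over all genes, and in the kilobase after it 0.247% and 1.35%. All genes reached 18.5% between 4 and 5 kb inside the start, where members were at 1.01%. The highest member bin, 3.59% between 3 and 2 kb before the start, held 120 CpGs with a median of 0.463%. Irx4 gave 6 of them, including all 5 at 20% or more, and without Irx4 the bin was at 0.945%. Further homeobox genes outside the Hox, Pax and sine oculis families, 54 of them with a RefSeq start, were also low at the start, and had an upstream bin at 18.5% that rested on 40 CpGs. The locus median of the 80 measured was 1.49%, against 0.644% for members and 4.61% for all genes.

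**Figure D2:**
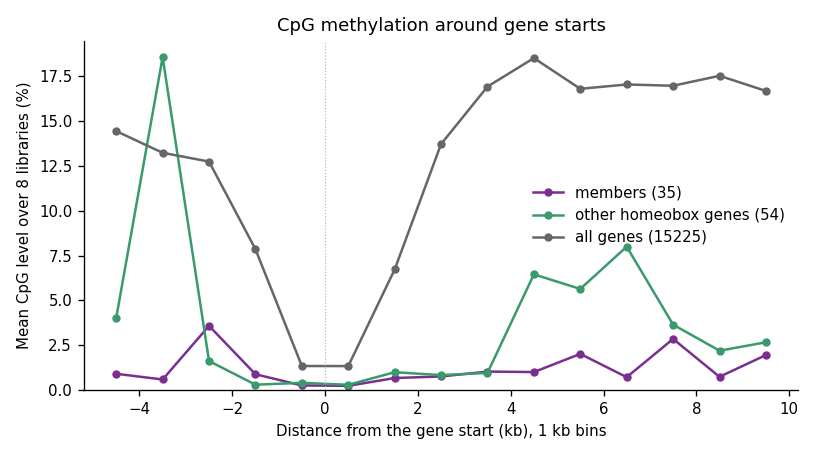
Mean CpG level over the 8 libraries (y axis, percent) in 1 kb bins by distance from the RefSeq gene start (x axis, kb, negative before the start), for members, other homeobox genes and all genes, with the number of genes in the legend. Members stay between 0.247 and 3.59% in every bin, whereas all genes reach 18.5%.

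Start windows of 1.5 kb (1000 bp outside and 500 bp inside the start, or the CpG-denser gene end where RefSeq gave no start) could be measured in 44 members. All 44 had a level under 5%, as did 92.5% of all windows. Their median, 0.201%, was above that of all windows, 0.0728%. Every member window held at least 1 methylated read, whereas 10.2% of all windows held none; member windows had a median of 22.5 CpGs and all windows 17. Runs of consecutive measured CpGs under 10% that touched a locus had a median length of 25379 bp in members and 10854 bp over all genes. The median was 23558.5 bp in the further homeobox genes and 32285 bp in genes for Polycomb subunits and H3K27 demethylases. Long runs were thus not particular to members. RRBS leaves long unread gaps inside such runs. Ending runs at gaps over 1 kb was a setting added after the data were seen. It gave 1587 bp in members and 340 bp over all genes. The further homeobox genes were then at 1309.5 bp and the Polycomb and demethylase genes at 1052 bp. A minimum of 20 reads, which leaves fewer CpGs to end a run, gave 346360 bp in members and 179967 bp over all genes. The longest runs touched Otx1 (428125 bp), which patterns the forebrain, Isl1 (406718 bp), a regulator of motor neurons and heart, and Nkx2-2 (347059 bp), a spinal cord patterning gene. These lengths were mostly unread gaps, and the Isl1 run held only 46 CpGs. With runs ended at gaps over 1 kb, the longest was 1410 bp at Otx1, 276 bp at Isl1 and 1756 bp at Nkx2-2.

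The 50 loci differed in level among themselves. The lowest were Isl1 at 0.264%, Irx2 at 0.274% and Msx2, a limb and tooth regulator, at 0.287%. These neighbours in the order did not differ beyond their spread over libraries. Isl1 was at 0.375, 0.257, 0.45 and 0.148% in CRD libraries and at 0.144, 0.118, 0.546 and 0.0768% in URD libraries. Msx2 was at 0.239, 0.319, 0.304 and 0.242% in CRD libraries and at 0.124, 0.313, 0.580 and 0.176% in URD libraries. In both genes URD3 was the highest library and the groups overlapped.

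At the upper end stood Alx4, a paired-like regulator of limb and skull, at 13.0%, Irx4, a ventricular heart gene, at 6.06%, and Lhx4, a pituitary and motor neuron gene, at 5.22%. All other loci lay under 5%, and 39 of the 50 under 1%. Alx4 was at 9.51, 10.5, 14.4 and 12.7% in CRD libraries and at 16.6, 14.5, 13.2 and 12.6% in URD libraries. CRD1 and CRD2 were lowest, and the other libraries overlapped. Irx4 was at 4.04, 4.37, 8.86 and 6.43% in CRD libraries and at 7.72, 6.87, 5.88 and 4.28% in URD libraries. Lhx4 was at 4.02, 4.99, 5.77 and 4.50% in CRD libraries and at 6.41, 6.19, 4.74 and 5.15% in URD libraries. Both genes overlapped between the groups.

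**Figure D3:**
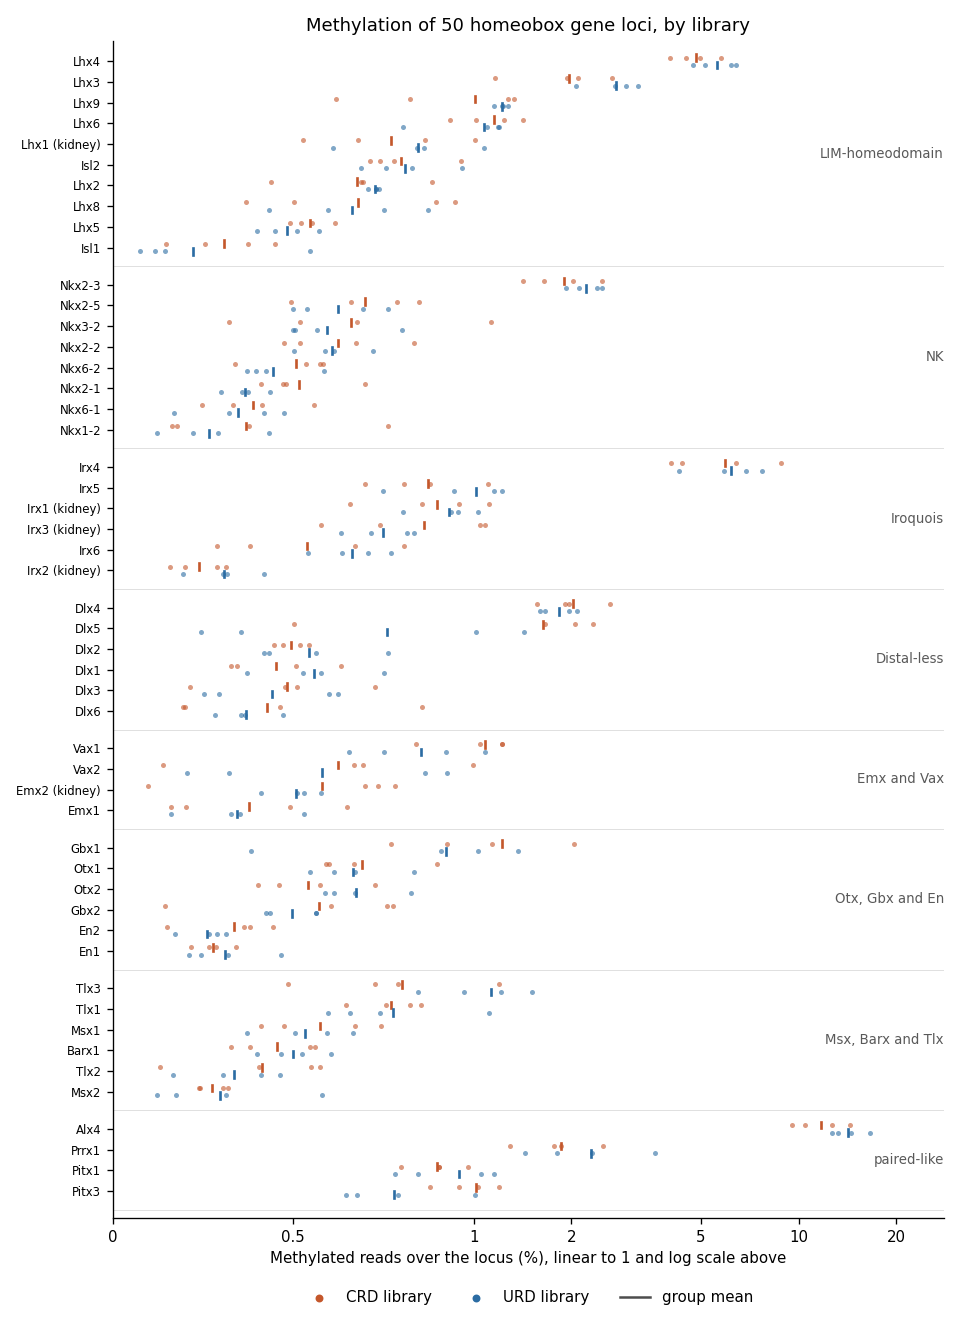
Methylated reads over each of the 50 loci in percent (x axis, linear to 1% and log scale above), 1 point a library, with bars at the group means, genes ordered by family and level. CRD and URD points overlap at every locus, and Alx4 (13.0%), Irx4 (6.06%) and Lhx4 (5.22%) stand above the rest.

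Methylation in these higher loci lay in a few short stretches. In Alx4, 2 tiles in the gene body were methylated, at 91.2% (chr2:93651001-93652000, 4 CpGs) and 82.6% (chr2:93677001-93678000, 3 CpGs). In Lhx4, a body tile at chr1:155717001-155718000 with 6 CpGs was at 80.5%, and 2 CpGs in the flank, at positions 155696908 and 155696920, were at 97.4% and 96.7%. In Irx4, the tile at chr13:73257001-73258000, upstream of the gene, was at 53.1% and was the only member tile between 20 and 80%, and 1 CpG in the gene body, at 73261527, was at 25.5%. Of the 31 member CpGs at 20% or more, Alx4 and Lhx4 held 7 each and Irx4 6. Nkx2-3, a gut and spleen gene, held 2, and 9 further genes held 1 each, among them Prrx1 at 93.0% and Pitx3 at 83.9%. Over these 31 CpGs the mean was 66.8% ± 0.983 in CRD libraries and 66.0% ± 1.94 in URD libraries (SD, n = 4 each).

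The Irx4 tile varied more between libraries than any other member tile, with an SD of 6.29 points over the 8 libraries. It was at 58.1, 47.0, 58.8 and 52.7% in CRD libraries and at 57.9, 58.3, 49.8 and 42.1% in URD libraries. The groups overlapped, with means of 54.1% ± 5.49 in CRD and 52.0% ± 7.69 in URD libraries (adjusted p = 0.882, quasi-binomial test). Its first CpG, at position 73257718, was at 55.6, 18.8, 57.8 and 44.1% in CRD libraries and at 56.5, 60.3, 12.8 and 0% in URD libraries. That CpG had an SD of 24.0 points over the 8 libraries. The SD was 10.2 and 9.79 points at positions 73257776 and 73257850, and 4.55 and 2.74 points at 73257840 and 73257862. The CpG at 73257942 was at 2.38%, so the 6 CpGs of the tile differed in level and in spread. Next in SD came the Alx4 tile at 82.6%, which was at 82.7, 78.6, 81.5 and 91.9% in CRD libraries and at 86.1, 83.3, 78.4 and 78.3% in URD libraries. The Tlx3 tile at chr11:33197001-33198000, beside a gene for sensory and hindbrain neurons, was at 7.25, 10.0, 13.5 and 6.06% in CRD libraries and at 9.56, 12.9, 7.74 and 17.1% in URD libraries. In neither tile were the groups apart.

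By family, the mean CpG level was 3.68% in paired-like genes, 1.497% in LIM-homeodomain genes and 1.28% in Iroquois genes. It lay between 0.540 and 0.668% in the other 5 families. Alx4, Lhx4 and Irx4 belong to the 3 higher families. The closely spaced pair Dlx1 and Dlx2 shared 9 CpGs, so their values are not separate measurements. Dlx5 and Dlx6 overlapped in their extended loci but shared 0 CpGs.

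The kidney members had a mean CpG level of 0.615% ± 0.125 in CRD libraries and 0.614% ± 0.0306 in URD libraries, over 551 CpGs. The other 45 members had 1.17% ± 0.0631 in CRD and 1.17% ± 0.0267 in URD libraries, over 3680 CpGs (SD, n = 4 each). Kidney members lay below the others in all 8 libraries, with a mean difference of -0.557 points. The size depended on the read minimum, with -0.281 points at 5 reads and -0.290 at 20 reads. Without Alx4, Irx4 and Lhx4 among the others the difference was -0.127 points, again below 0 in all 8 libraries. The locus medians ran the other way, with 0.806% for kidney members and 0.627% for the other members. The order of the sets thus differed between the mean over CpGs and the median over loci, which high loci such as Alx4 move little.

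Each kidney member overlapped between the groups. Lhx1 was at 0.679, 0.866, 1.01 and 0.527% in CRD libraries and at 0.843, 1.07, 0.861 and 0.609% in URD libraries (adjusted p = 0.814, quasi-binomial test). Irx1 was at 0.959, 1.12, 0.857 and 0.657% in CRD libraries and at 1.03, 0.805, 0.937 and 0.956% in URD libraries (adjusted p = 0.981, same test). CRD4 was the lowest library at both loci. Irx2 was at 0.289, 0.313, 0.159 and 0.200% in CRD libraries and at 0.317, 0.194, 0.305 and 0.419% in URD libraries (adjusted p = 0.75, same test). Irx3 was at 1.08, 0.742, 1.05 and 0.577% in CRD libraries and at 0.834, 0.716, 0.815 and 0.632% in URD libraries (adjusted p = 0.647, same test). CRD libraries gave both the highest and the lowest Irx3 value. Emx2 was at 0.782, 0.0978, 0.736 and 0.699% in CRD libraries and at 0.411, 0.510, 0.529 and 0.577% in URD libraries (adjusted p = 0.799, same test). CRD2 stood far below the other 7 libraries at Emx2, and the remaining CRD libraries lay above all URD libraries.

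The comparison of diets asked whether restriction of the dams changed methylation at these genes, and no member unit passed an adjusted p of 0.05 in the quasi-binomial test. Among tiles, 0 of 268 tested members were called, where 0.0177% of all tested tiles were. At an unadjusted p under 0.05 there were 12 member tiles (7 higher and 5 lower in CRD), or 4.48%, against 6.32% of all tiles (3% higher and 3.32% lower). Limma called 0 tiles among members. By edgeR 1 of 268 member tiles was called, beside 110 of all 33897 tested tiles. That 1 call, given with the Lhx6 tile below, is no result about the members. All 4 CRD libraries lay on one side of all 4 URD libraries in 5 member tiles (1.87%), against 2.26% of all tiles. Both member shares lie near or under the background and are no result about the members.

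Single CpGs, windows and loci gave the same count. Of 2083 member CpGs tested, 0 were called, against 0.0997% of all, with 60 at an unadjusted p under 0.05 (2.88%, against 5.62% of all). Groups were apart at 10 member CpGs (0.480%), against 1.8% of all. Of 44 member windows 0 were called, against 0.124% of all, with 1 at an unadjusted p under 0.05, against 6.95% of all. Groups overlapped at every member window, where they were apart at 1.49% of all. Of 50 member loci 0 were called, as of all loci (0%), with 1 at an unadjusted p under 0.05, against 11.7% of all (1.26% higher and 10.5% lower in CRD). That locus, Alx4, was lower in CRD, the more common direction over all loci. Groups overlapped at every member locus, where they were apart at 4.79% of all. Limma also called 0 members in each of these units. The lowest adjusted p of a member was 0.648 for tiles (Msx1), 0.475 for CpGs (Otx1), 0.385 for loci (Alx4) and 0.654 for windows (Pitx1). These do not show that the members are alike in both diets: where levels sit near 0 a decrease has little room.

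**Figure D4:**
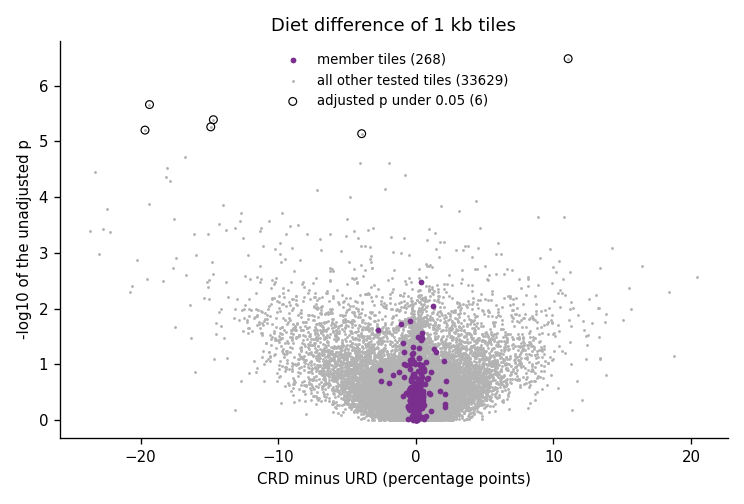
Each point is a tested 1 kb tile: CRD minus URD in percentage points (x axis) against -log10 of the unadjusted p (y axis), with member tiles in colour and the 6 called tiles ringed. Member tiles lie between -2.76 and 2.17 points, and none is ringed.

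The member tiles of smallest p in each direction mostly had levels under 2% in both groups. Among those higher in CRD, the Msx1 tile (chr5:37826001-37827000, 19 CpGs), beside a tooth and limb regulator, was at 0.654, 0.192, 0.177 and 0.472% in CRD libraries and at 0, 0, 0.146 and 0% in URD libraries (adjusted p = 0.648, quasi-binomial test). The groups did not overlap, but the tile had only 12 methylated among 6267 reads. The Lhx6 tile (chr2:36091001-36092000, 18 CpGs), in a gene of cortical interneurons, was at 4.67, 0.302, 0 and 0% in CRD libraries and at 0% in every URD library (adjusted p = 0.737, same test). Its difference came nearly all from CRD1, and edgeR called it (adjusted p = 0.00264); without CRD1 the difference was 0.101 points, against 1.24 with it. The Lhx5 tile (chr5:120440001-120441000, 40 CpGs), in a forebrain gene, was at 1.08, 1.18, 1.10 and 0.698% in CRD libraries and at 0.674, 0.744, 0.256 and 0.640% in URD libraries (adjusted p = 0.773, same test). CRD4 overlapped the URD libraries there. The Tlx2 tile (chr6:83068001-83069000, 16 CpGs), at an enteric neuron gene, was at 0.202, 0, 0.290 and 0% in CRD libraries and at 0% in every URD library. It had only 4 methylated among 5282 reads.

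Among tiles lower in CRD, the Irx5 tile (chr8:92365001-92366000, 9 CpGs), beside a heart and retina gene, had the largest difference. It was at 5.96, 6.25, 4.27 and 6.98% in CRD libraries and at 7.30, 7.45, 9.29 and 10.5% in URD libraries, a difference of -2.76 points (adjusted p = 0.766, quasi-binomial test). All CRD libraries lay below all URD libraries, by a narrow margin. The Vax2 tile (chr6:83712001-83713000, 10 CpGs), in a gene of the ventral eye, was at 0% in every CRD library and at 0.923, 0.252, 0.312 and 0.311% in URD libraries (adjusted p = 0.760, same test). These groups did not overlap either, but the tile had only 6 methylated among 2468 reads. The Pitx1 tile (chr13:55826001-55827000, 14 CpGs), in a hindlimb gene, was at 0.573, 0.612, 1.19 and 0.380% in CRD libraries and at 2.20, 1.57, 2.29 and 1.08% in URD libraries (adjusted p = 0.760, same test). Only CRD3 and URD4 crossed. The Otx1 tile (chr11:21998001-21999000, 7 CpGs) was at 0, 0, 1.31 and 0% in CRD libraries and at 1.26, 2.08, 0.485 and 1.16% in URD libraries. CRD3 was the only CRD library with a methylated read there.

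**Figure D5:**
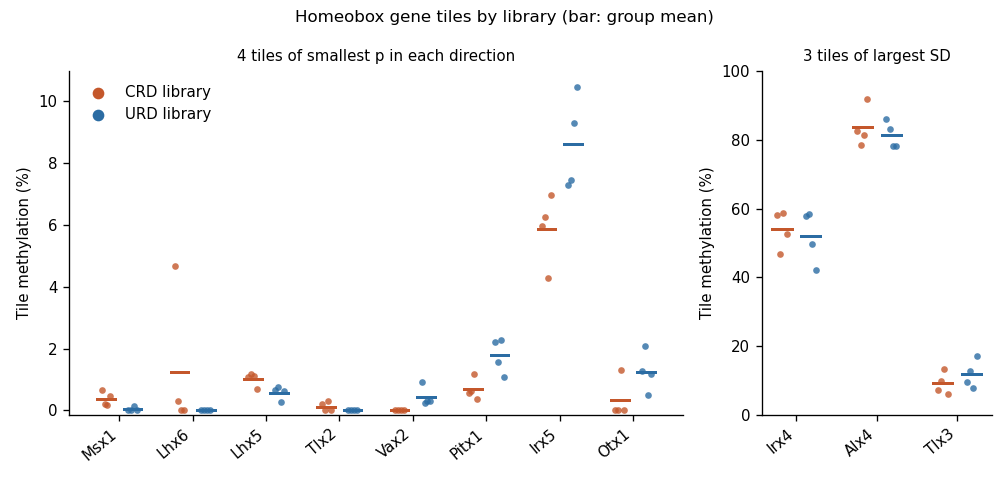
Level of the named member tiles in percent (y axis), 1 point a library with bars at group means: at left the 4 tiles of smallest p in each direction, at right the 3 of largest SD, on separate scales. Irx5 has the widest gap at left, 5.86% in CRD against 8.62% in URD libraries, and the Irx4, Alx4 and Tlx3 tiles overlap.

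Single CpGs of smallest p were at 0 throughout one group. Otx1 at position 22004917 was at 6.90, 0, 15.4 and 7.14% in CRD libraries and at 0% in every URD library, on 13 to 38 reads (adjusted p = 0.475, quasi-binomial test). Nkx2-2 at 147181444 was at 9.09, 5, 9.52 and 0% in CRD libraries and at 0% in every URD library. Msx1 at 37826648, inside the Msx1 tile above, was at 4.26, 3.03, 3.45 and 2.70% in CRD libraries and at 0% in every URD library. In the other direction, Barx1 at 48658543, beside a stomach gene, was at 0% in every CRD library and at 4.35, 10.7, 7.69 and 4.35% in URD libraries (adjusted p = 0.594, same test). Isl2 at 55546597 was at 0% in every CRD library and at 2.00, 5.26, 5.13 and 0% in URD libraries. Emx1 at 85186955, beside a cortical gene, was at 0% in every CRD library and at 1.72, 4.35, 0 and 3.17% in URD libraries. Of these 6 CpGs, groups were apart only at Msx1 and Barx1. All 6 rested on few methylated reads over the 8 libraries. There were 5 among 191 reads at Otx1, 6 among 206 at Nkx2-2 and 5 among 354 at Msx1. Barx1 had 7 among 187, Isl2 7 among 407 and Emx1 6 among 423.

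At the level of loci, the smallest p among members went to Alx4, given above, with 11.8% ± 2.17 in CRD and 14.2% ± 1.77 in URD libraries (SD, n = 4 each, adjusted p = 0.385, quasi-binomial test). The lowest Alx4 libraries, CRD1 and CRD2, are those that read unmethylated CpGs more deeply. Without both, the Alx4 difference was -0.743 points (adjusted p = 0.911), against -2.49 with them, and over 18 alternatives its adjusted p ran between 0.141 and 0.911. Leaving out URD1 alone gave -1.69 points. Its 2 methylated tiles had levels of 92.1% and 83.7% in CRD and of 90.3% and 81.5% in URD libraries. Tlx3 was at 0.486, 0.790, 1.20 and 0.726% in CRD libraries and at 0.972, 1.21, 0.845 and 1.51% in URD libraries (adjusted p = 0.454, same test). Among loci higher in CRD, Dlx5, a bone and jaw gene with only 10 measured CpGs, was at 1.66, 0.503, 2.33 and 2.05% in CRD libraries and at 1.43, 0.244, 0.355 and 1.01% in URD libraries (adjusted p = 0.497, same test). Nkx2-1, a thyroid, lung and forebrain gene, was at 0.698, 0.471, 0.411 and 0.481% in CRD libraries and at 0.357, 0.435, 0.299 and 0.374% in URD libraries (adjusted p = 0.528, same test). Groups overlapped at all of these loci.

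The further homeobox genes and the Polycomb machinery were counted in the same fits. Of 397 tested tiles of the further homeobox genes 0 were called, and of their 2684 CpGs 1 was called lower in CRD, where 0.0177% of all tiles and 0.0997% of all CpGs were called. Of 104 tested tiles of genes for Polycomb subunits and H3K27 demethylases 0 were called, and of their 499 tested CpGs 1 was called higher in CRD. Single calls in lists of these sizes are no result about the lists. No window or locus of either list was called.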

How the data were processed

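Per the labels' protocols, DNA of sorted cells was sequenced by RRBS over several lanes; which library ran on which lane is not given in the sources used here. Bismark 0.13.1, methylKit, Trim Galore 0.3.3, FastQC, cutadapt and the build mm10 are listed, without order or settings, per the submitters' processing notes. The deposited files give, for each cytosine, the count of reads and the percent of reads methylated; the lowest deposited count was 1. Methylated reads were recovered by rounding, and strands were added. A C-to-T variant, possible in outbred mice, reads as unmethylated; genotypes were not analysed here. PCR copies cannot be removed in RRBS.

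Methylated reads were modelled by logistic regression on diet, with a likelihood-ratio F test, a Pearson dispersion of at least 1, moderated as in limma's squeezeVar (ported to Python), and Benjamini-Hochberg adjustment over all units genome-wide. Units with no methylated or no unmethylated read were not tested. On simulated data with known changes, the share of false calls exceeded the nominal level for tiles and much more for single CpGs, at both spreads between libraries that were simulated; a narrower spread, set to that of the real units, was added after the first showed many false CpG calls. Genome-wide counts of called tiles and CpGs may therefore be too high. limma 3.58.1 on M-values and edgeR 4.0.16 were alternatives, among 69 planned and 1 added.

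Named units were the 4 tiles, 3 CpGs and 2 loci of smallest p per direction, the kidney members, the 3 highest and 3 lowest loci, the 3 tiles of largest SD and the 3 longest runs. Members and lists were chosen with earlier results of these data known. Groups and replicate numbers came from the labels. Correlations of deviations between CRD and URD libraries of the same number were 0.0154, -0.106, -0.0463 and 0.0194.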

Additional observations from a re-analysis of the deposited data

Results flagged for a closer look

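Of 77 sets of 4 libraries examined, 7 held 1 library far from the other 3. The usual chance rate for such a gap, about 1 in 20, holds for normally spread values of sets not chosen by their values. Here many levels lie near 0, several tiles were chosen by p or SD, and in 2 of the 7 the other libraries were all at 0, so the number is not read against it. The Msx1 tile was at 0.146% in URD3, with the other URD libraries at 0. The Lhx6 tile was at 4.67% in CRD1, against 0 to 0.302% in the other CRD libraries. The Vax2 tile was at 0.923% in URD1, against 0.252 to 0.312% in the other URD libraries. The Otx1 tile was at 1.31% in CRD3, with the other CRD libraries at 0. The Emx2 locus was at 0.0978% in CRD2, against 0.699 to 0.782% in the other CRD libraries. The Isl1 locus was at 0.546% in URD3, against 0.0768 to 0.144% in the other URD libraries. The mean CpG level of the NK family was 0.751% in CRD3, against 0.620 to 0.632% in the other CRD libraries.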

How the results depend on the processing

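No member was called in any unit under the alternatives run, except 1 tile (Lhx6) by edgeR, which called 110 of all 33897 tested tiles. No pairing by replicate number was visible in the correlations given above, which cannot exclude a shared litter or batch. With the replicate number as a block, 0 member tiles were called, and 0 of all tiles against 6 without it. The mean-level difference of members was -0.0601 points with reads summed before the ratio, and -0.0243 to 0.0223 leaving out 1 library. Kidney minus other members was -0.281 points at 5 reads, -0.290 at 20 reads, -0.476 with reads summed, -0.428 in gene bodies and -0.771 with 10 kb flanks. The median run was 15919 bp at a 5% limit, 346360 bp at 20 reads and 1587 bp with gaps up to 1 kb. Differences of loci that turned sign were, at 5 reads, Irx1 0.00463, Irx3 -0.679, Msx2 0.0199 and Nkx2-2 -0.414 points, and at 20 reads, Irx2 0.0221, Lhx1 0.00283, Isl1 -0.0297 and Otx1 -0.0976. They were -0.259 for Isl1 and -0.115 for Otx1 in gene bodies, 1.46 for Irx4 without CRD1 and CRD2, and 0.13 (log2) for Msx2 by limma. Leaving out 1 library gave ranges across 0 for the Irx4 tile (-1.21 to 4.48), the Alx4 tile (-0.607 to 3.83), and the loci of Irx4 (-1.24 to 0.366), Nkx2-2 (-0.0509 to 0.0699), Irx1 (-0.107 to 0.0465), Lhx1 (-0.156 to 0.00543), Otx1 (-0.0470 to 0.0791) and Msx2 (-0.0803 to 0.0719). The cause was not tested.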
